A study of Mus musculus with 5 samples.

Results

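Peaks of the chromatin remodeller ATRX inside very long genes were described in 4 deposited peak lists from mouse primary neurons. A peak belonged to this set when its summit lay on chromosomes 1 to 19, inside a protein-coding gene that spans 500 kb or more in RefSeq on GRCm38, and more than 1 kb from both ends of that gene. The rule uses position alone, so no measured value chose the members. It took 58250 of 651098 peaks, namely 15482 of 199059 in TBC1D3 DIV14, 15414 of 141387 in MICAL1-M1 DIV14, 16157 of 213982 in mCherry DIV7 and 11197 of 96670 in mCherry DIV14. The host genes were 215 of the 20661 protein-coding genes on these chromosomes. Their median span was 735 kb, 55 of them reached 1 Mb, and the longest, Ptprd, spanned 2271 kb.

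The neurons came from C57BL6/J embryos at embryonic day 15.5 to 17.5, were kept in Neurobasal A medium with B27, glutamine and 2% serum, and were infected with lentivirus on day 5 of culture. TBC1D3 DIV14 and MICAL1-M1 DIV14 are neurons infected for TBC1D3, a gene family found only in hominoids, or for MICAL1-M1, each taken at day 14 in vitro. The mCherry DIV7 culture received the fluorescent protein mCherry and was taken at day 7, and mCherry DIV14, the control of each comparison below, received mCherry and was taken at day 14. Chromatin was immunoprecipitated with an ATRX antibody and each group has 1 library, so no difference between groups could be tested, and every interval given here is a 95% interval of counting error alone. The labels do not say what M1 stands for, how many embryos were pooled or which cells took up virus, and the names inside the MICAL1-M1 list carry another short tag than its label, so that list is used as labelled. Exons and introns were not told apart. Peak lists hold no RNA levels, so the neuronal label could not be set against marker genes. An input library was not analysed here.

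ATRX is a SNF2-type remodeller that works with DAXX to place a replacement form of histone H3 at heterochromatin, telomeres and other repeats, and its loss in people causes a syndrome with intellectual disability. Very long genes are common among those that neurons express strongly: they encode synaptic adhesion molecules, receptors and their scaffolds, ion channels and splicing regulators. Their transcription takes long, and several of them lie at common fragile sites, stretches that break under replication stress.

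Sequence is shown for starts inside these genes that had a summit of every list nearby. An internal start is a RefSeq transcription start of the long gene itself that lies more than 1 kb from both of its ends, and 23 such starts in 19 genes had a summit within 1 kb in all 4 lists. The 4 with the smallest control p are Fgf12 (chr16:28446026-28446325, minus strand), Adgrl3 (chr5:81021343-81021642, plus strand), Pde4b (chr4:102569810-102570109, plus strand) and Nav2 (chr7:49245939-49246238, plus strand). Nav2 also had the smallest p of the 23 in TBC1D3 DIV14. Dab1 (chr4:104367288-104367587, plus strand) had the smallest in MICAL1-M1 DIV14, and Nkain2 (chr10:32889866-32890165, minus strand) the smallest in mCherry DIV7. Each sequence is from RefSeq (GRCm38.p6), runs 5′ to 3′ on the gene's strand from 250 bases before the start to 50 after it, and has every CG dinucleotide in capitals.
Fgf12: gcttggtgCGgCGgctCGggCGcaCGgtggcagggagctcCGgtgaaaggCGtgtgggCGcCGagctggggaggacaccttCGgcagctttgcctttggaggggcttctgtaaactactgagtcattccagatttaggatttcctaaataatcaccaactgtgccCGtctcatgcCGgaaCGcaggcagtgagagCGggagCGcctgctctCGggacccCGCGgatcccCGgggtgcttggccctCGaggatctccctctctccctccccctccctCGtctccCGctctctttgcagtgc
Adgrl3: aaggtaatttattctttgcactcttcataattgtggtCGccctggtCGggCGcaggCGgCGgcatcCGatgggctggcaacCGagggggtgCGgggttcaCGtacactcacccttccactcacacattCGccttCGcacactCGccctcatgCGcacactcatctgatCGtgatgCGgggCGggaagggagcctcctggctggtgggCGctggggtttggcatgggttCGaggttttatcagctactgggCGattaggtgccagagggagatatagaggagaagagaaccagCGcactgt
Pde4b: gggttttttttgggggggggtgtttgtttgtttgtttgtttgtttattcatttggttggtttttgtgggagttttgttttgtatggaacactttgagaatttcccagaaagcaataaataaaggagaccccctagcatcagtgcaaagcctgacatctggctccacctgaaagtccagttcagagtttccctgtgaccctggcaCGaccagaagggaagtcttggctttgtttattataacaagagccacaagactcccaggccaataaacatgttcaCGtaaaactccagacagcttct
Nav2: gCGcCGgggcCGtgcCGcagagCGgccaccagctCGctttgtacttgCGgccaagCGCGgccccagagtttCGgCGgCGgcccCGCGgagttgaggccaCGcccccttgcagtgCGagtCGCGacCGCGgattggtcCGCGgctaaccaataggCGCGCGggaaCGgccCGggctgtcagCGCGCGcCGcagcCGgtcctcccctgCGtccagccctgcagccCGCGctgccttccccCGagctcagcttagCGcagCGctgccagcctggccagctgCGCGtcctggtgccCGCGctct
Dab1: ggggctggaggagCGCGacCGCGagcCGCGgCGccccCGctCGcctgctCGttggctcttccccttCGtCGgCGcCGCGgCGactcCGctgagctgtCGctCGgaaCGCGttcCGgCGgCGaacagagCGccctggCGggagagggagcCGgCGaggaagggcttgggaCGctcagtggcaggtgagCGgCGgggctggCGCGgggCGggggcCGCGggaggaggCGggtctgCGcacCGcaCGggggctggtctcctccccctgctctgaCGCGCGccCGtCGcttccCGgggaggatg
Nkain2: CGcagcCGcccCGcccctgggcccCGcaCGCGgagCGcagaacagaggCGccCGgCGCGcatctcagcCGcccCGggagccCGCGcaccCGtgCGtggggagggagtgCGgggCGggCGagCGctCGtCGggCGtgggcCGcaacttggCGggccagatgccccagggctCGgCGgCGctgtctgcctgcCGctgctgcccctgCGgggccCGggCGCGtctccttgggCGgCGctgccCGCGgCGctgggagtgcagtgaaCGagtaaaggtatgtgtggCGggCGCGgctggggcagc

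The windows mark the starts, not the summits: the strongest nearby peak of a list had its summit inside the window in 0 of 4 lists at Pde4b and Nkain2, 1 at Fgf12 and Adgrl3, and 2 at Nav2 and Dab1. The CG letters differ widely between these windows, with 22 in Fgf12, 20 in Adgrl3, 2 in Pde4b, 42 in Nav2, 46 in Dab1 and 43 in Nkain2. Expressed as the CpG ratio, the CG count over that expected from the C and G content, Pde4b had 0.14 and Dab1 1.04. Fgf12 encodes an intracellular fibroblast growth factor that modulates voltage-gated sodium channels. Its peaks reached the authors' fold enrichment of 2.71 in TBC1D3 DIV14, 3.32 in MICAL1-M1 DIV14, 2.51 in mCherry DIV7 and 3.28 in mCherry DIV14, and the control peak alone had a q under 0.05 (0.00893). Nav2, a microtubule-associated protein of growing axons, had a fold of 4.35 in TBC1D3 DIV14 (q = 0.0115), against 2.20 in MICAL1-M1 DIV14, 1.92 in mCherry DIV7 and 2.62 in mCherry DIV14. Dab1, the adaptor of reelin signalling, had a fold of 3.17 in TBC1D3 DIV14, 4.15 in MICAL1-M1 DIV14 (q = 0.00787), 2.82 in mCherry DIV7 and 2.12 in mCherry DIV14. Nkain2, which encodes a protein that binds the sodium pump, had a fold of 3.56 in TBC1D3 DIV14, 2.78 in MICAL1-M1 DIV14, 4.37 in mCherry DIV7 (q = 0.0151) and 2.23 in mCherry DIV14. At Adgrl3, the latrophilin receptor of excitatory synapses, and Pde4b, a cAMP phosphodiesterase, the control folds were 2.95 and 3.11. Fgf12, Adgrl3, Pde4b and Nav2 were chosen on their control p, and Nav2, Dab1 and Nkain2 on their p in 1 other list. A high fold or a small p or q in the list that chose a start is thus no finding. Folds rank peaks within a list only.

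In the MICAL1-M1 DIV14 and mCherry DIV14 lists, ATRX summits were denser inside very long genes than over chromosomes 1 to 19 as a whole. In the TBC1D3 DIV14 and mCherry DIV7 lists, very long genes were close to the genome-wide density. These genes make up 7.46% of the sequence counted on chromosomes 1 to 19, 179 of 2403 Mb. They held 7.94% of the summits there in TBC1D3 DIV14, 11.0% in MICAL1-M1 DIV14, 7.79% in mCherry DIV7 and 11.6% in mCherry DIV14. In summits per Mb this was 86.4 in TBC1D3 DIV14, 86.0 in MICAL1-M1 DIV14, 90.2 in mCherry DIV7 and 62.5 in mCherry DIV14, so the smallest list had the lowest absolute density. Relative density, the summits per Mb in a class over those of the same list on all of chromosomes 1 to 19, was 1.06 (1.05 to 1.08) in TBC1D3 DIV14 and 1.48 (1.45 to 1.499) in MICAL1-M1 DIV14. It was 1.04 (1.03 to 1.06) in mCherry DIV7 and 1.56 (1.53 to 1.59) in mCherry DIV14. Depth is known only indirectly. If fold is pileup over background with 1 fragment added to each, the spacing of the common folds gives a background pileup of 1.22 fragments in TBC1D3 DIV14, 2.61 in MICAL1-M1 DIV14, 1.28 in mCherry DIV7 and 3.56 in mCherry DIV14. The part of depth in the difference between lists was not tested. The relative density was as far apart when each list was cut to its 96230 strongest peaks by p: 1.05 in TBC1D3 DIV14, 1.49 in MICAL1-M1 DIV14, 1.04 in mCherry DIV7 and 1.56 in mCherry DIV14. Peaks tied in p were ordered by fold, and those tied in both by chromosome name and position.

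Gene span and density moved together up to 200 kb and levelled off above it. In mCherry DIV14 relative density was 0.712 in gene bodies under 50 kb, 0.938 at 50 to 100 kb, 1.257 at 100 to 200 kb, 1.56 (1.53 to 1.58) at 200 to 500 kb and 1.56 at 500 kb or more. The MICAL1-M1 DIV14 list ran from 0.695 in the shortest class to 1.43 (1.41 to 1.45) at 200 to 500 kb and 1.48 in the very long genes. TBC1D3 DIV14 spread less, with 0.821 in the shortest class, 1.09 (1.08 to 1.11) at 200 to 500 kb and 1.06 in the very long genes. The same 3 values in mCherry DIV7 were 0.788, 1.07 (1.05 to 1.08) and 1.04. In each list but MICAL1-M1 DIV14 the intervals of the very long genes and of genes of 200 to 500 kb overlapped. Sequence outside protein-coding genes was at 1.002 in TBC1D3 DIV14, 0.840 in MICAL1-M1 DIV14, 1.03 in mCherry DIV7 and 0.739 in mCherry DIV14. On either side of the limit of 500 kb the genes overlapped: Edil3 (502 kb) and Dock1 (503 kb), just inside, had 1.20 and 1.25 in the control, and Dnm3 (496 kb) and Lrrc7 (495 kb), just outside, had 2.17 and 2.48.

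**Figure D1:**
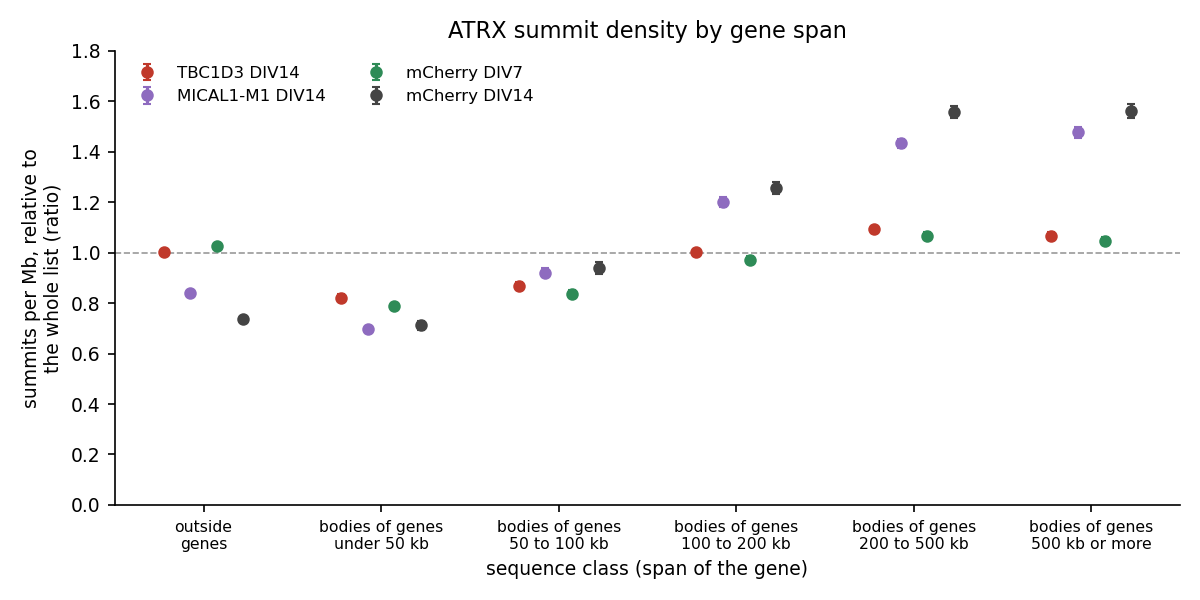
Relative summit density (summits per Mb over the density of the whole list, y axis) by sequence class (x axis: outside protein-coding genes, then bodies of genes by span) in TBC1D3 DIV14, MICAL1-M1 DIV14, mCherry DIV7 and mCherry DIV14, with 95% counting intervals. The very long genes stood at 1.06, 1.48, 1.04 and 1.56, and in all lists the class of 200 to 500 kb was within 0.05 of them.

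Relative to the whole list, peaks with a q of at most 0.05 showed no excess in very long genes. Of all such peaks, 40.7% in mCherry DIV14 and 41.6% in MICAL1-M1 DIV14 lay within 1 kb of a gene end. The shares were 9.80% in TBC1D3 DIV14 and 11.7% in mCherry DIV7. Among peaks with a q of at most 0.05, relative density in very long genes was 0.725 (0.419 to 1.16; 16 peaks) in TBC1D3 DIV14, 1.002 (0.740 to 1.32; 46 peaks) in MICAL1-M1 DIV14, 0.627 (0.375 to 0.978; 18 peaks) in mCherry DIV7 and 0.886 (0.785 to 0.994; 266 peaks) in mCherry DIV14. Among peaks with a q of 1 it was 1.06 in TBC1D3 DIV14, 1.49 in MICAL1-M1 DIV14, 1.05 in mCherry DIV7 and 1.61 in mCherry DIV14. With a p of at most 0.001 it was 1.11, 1.34, 1.01 and 1.33 in the same lists. At the q limit, very long genes had 1.48 summits per Mb in mCherry DIV14, against 0.665 outside protein-coding genes. These 2 values were 0.257 and 0.103 in MICAL1-M1 DIV14, 0.0893 and 0.137 in TBC1D3 DIV14, and 0.100 and 0.169 in mCherry DIV7. Peaks with a q of at most 0.05 were 0.103% of the members in TBC1D3 DIV14, 0.298% in MICAL1-M1 DIV14, 0.111% in mCherry DIV7 and 2.38% in mCherry DIV14. In the bodies of shorter genes these shares were 0.104%, 0.359%, 0.145% and 3.47% in the same lists. Nearly all members are thus weak peaks, which the authors' lists hold down to a p of 0.05. Median widths were 325 bp in TBC1D3 DIV14, 410 bp in MICAL1-M1 DIV14, 327 bp in mCherry DIV7 and 423 bp in mCherry DIV14.

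Genes differed from one another far more in mCherry DIV14 and MICAL1-M1 DIV14 than in the other lists. The density at the 90th percentile of the 215 genes was 1.95 times that at the 10th in TBC1D3 DIV14, 3.53 times in MICAL1-M1 DIV14, 1.77 times in mCherry DIV7 and 5.97 times in mCherry DIV14. The median gene had a relative density of 1.10 in TBC1D3 DIV14, 1.41 in MICAL1-M1 DIV14, 1.05 in mCherry DIV7 and 1.42 in mCherry DIV14. Over the 2312 genes of 100 kb or more, the medians were 1.01, 1.21, 0.984 and 1.17 in the same lists. The counting interval lay above 1 for 49 of the 215 very long genes in TBC1D3 DIV14 and 126 in MICAL1-M1 DIV14. In mCherry DIV7 it did so for 46, and in mCherry DIV14 for 116. Over the 2312 genes of 100 kb or more these counts were 271 (11.7%), 655 (28.3%), 247 (10.7%) and 663 (28.7%), in that order. The interval lay below 1 for 30 of the 215 very long genes in TBC1D3 DIV14 and 28 in MICAL1-M1 DIV14. In mCherry DIV7 it did so for 24, and in mCherry DIV14 for 35. Over the 2312 genes of 100 kb or more these counts were 164 (7.09%), 194 (8.39%), 186 (8.04%) and 205 (8.87%), in that order. A longer gene has a narrower interval, so these counts do not compare with the shorter genes on equal terms.

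Celf2, which encodes an RNA-binding regulator of splicing and mRNA turnover in neurons, was the densest very long gene in the control. It had 118 summits in TBC1D3 DIV14, 173 in MICAL1-M1 DIV14, 139 in mCherry DIV7 and 185 in mCherry DIV14 over 857 kb (chr2:6539694-7396341). Its relative density was 1.70 in TBC1D3 DIV14, 3.47 in MICAL1-M1 DIV14, 1.88 in mCherry DIV7 and 5.41 in mCherry DIV14. Syt1 (chr10:108497650-109010980), the calcium sensor of fast transmitter release, had 52 summits in TBC1D3 DIV14, 85 in MICAL1-M1 DIV14, 44 in mCherry DIV7 and 86 in mCherry DIV14. Its relative density was thus 1.25, 2.85, 0.997 and 4.20, above the genome's level in MICAL1-M1 DIV14 and mCherry DIV14 and near it in mCherry DIV7. Adgrb3, an adhesion receptor that binds complement C1q-like proteins at synapses, reached 3.79 in the control, the transcription factor gene Nfia 3.62 and Nav3, a relative of Nav2, 3.56. All 5, chosen on their control value, lay between 1.12 and 1.70 in TBC1D3 DIV14.

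The other end of the control order held genes that were nearly empty there. Skint5, of a family expressed in thymus and skin, had 4 summits in TBC1D3 DIV14, 0 in MICAL1-M1 DIV14, 17 in mCherry DIV7 and 0 in mCherry DIV14 over 522 kb. Iqcm had 35 summits in TBC1D3 DIV14, 9 in MICAL1-M1 DIV14, 55 in mCherry DIV7 and 2 in mCherry DIV14. Cntnap5c, a contactin-associated protein, had 37 in TBC1D3 DIV14, 8 in MICAL1-M1 DIV14, 47 in mCherry DIV7 and 4 in mCherry DIV14. Cdh12, a classical cadherin, had 64 in TBC1D3 DIV14, 24 in MICAL1-M1 DIV14, 80 in mCherry DIV7 and 8 in mCherry DIV14. Sugct, a mitochondrial transferase gene, had 50 in TBC1D3 DIV14, 30 in MICAL1-M1 DIV14, 78 in mCherry DIV7 and 6 in mCherry DIV14. In each of these 5 the mCherry DIV7 count was the highest of the 4, and in the last 4 the relative density in that list was 0.808 to 1.19.

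**Figure D2:**
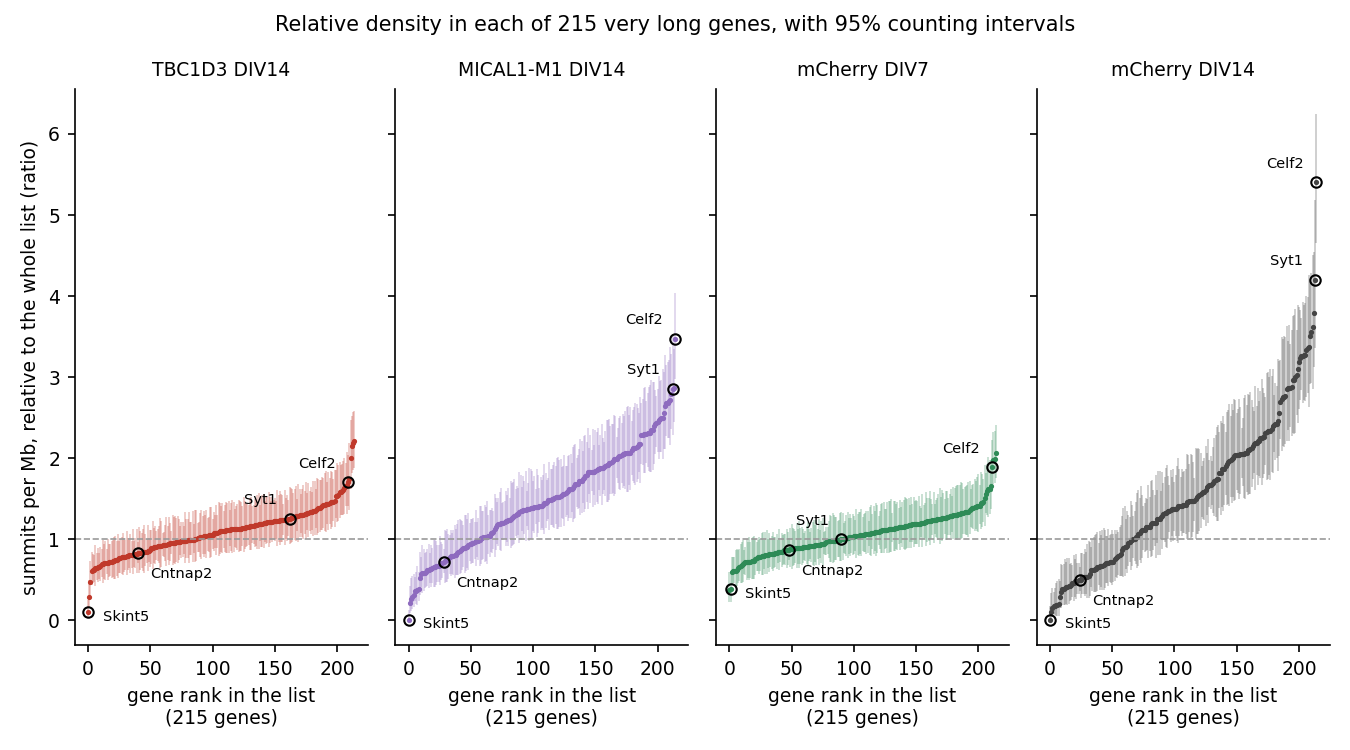
Relative density of each of the 215 very long genes (points, y axis, with 95% counting intervals), ordered within each list by rank (x axis), for TBC1D3 DIV14, MICAL1-M1 DIV14, mCherry DIV7 and mCherry DIV14; Celf2, Syt1, Cntnap2 and Skint5 are circled. The lists of TBC1D3 DIV14 and mCherry DIV7 spread less around 1 than the control, which rises to 5.41 at Celf2.

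The 10 longest genes did not share 1 pattern. Ptprd, a receptor phosphatase that organises synapses, had 170 summits in TBC1D3 DIV14, 186 in MICAL1-M1 DIV14, 185 in mCherry DIV7 and 152 in mCherry DIV14, which is a relative density of 0.923, 1.41, 0.945 and 1.67. Lsamp, a neuronal adhesion molecule of the limbic system, had 169 summits in TBC1D3 DIV14, 255 in MICAL1-M1 DIV14, 160 in mCherry DIV7 and 180 in mCherry DIV14, and a relative density of 2.05 in the control. Csmd1, a complement regulator, had 171 in TBC1D3 DIV14, 233 in MICAL1-M1 DIV14, 169 in mCherry DIV7 and 214 in mCherry DIV14, with 3.26 in the control the densest of the 10. Dlg2, the postsynaptic scaffold PSD-93, had 148 in TBC1D3 DIV14, 210 in MICAL1-M1 DIV14, 161 in mCherry DIV7 and 190 in mCherry DIV14. Cntnap2 (chr6:45060061-47301393), a neurexin-family protein that clusters potassium channels, went the other way, with 150 in TBC1D3 DIV14, 93 in MICAL1-M1 DIV14, 168 in mCherry DIV7 and 44 in mCherry DIV14. At 0.825, 0.713, 0.869 and 0.491 it was under the genome's density in all 4 lists, though its interval in mCherry DIV7 (0.743 to 1.011) included 1. Control densities of the others were 1.11 in Ctnna3, a catenin, 1.35 in Fhit, 1.47 in Lrp1b, 1.57 in Nrxn3, a neurexin, and 1.66 in Macrod2.

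The order of genes was shared in pairs of lists. Across the 215 genes, Spearman's rho between relative densities was 0.922 for MICAL1-M1 DIV14 and mCherry DIV14 and 0.732 for TBC1D3 DIV14 and mCherry DIV7. The other 4 pairs gave 0.301 to 0.438. These are descriptions across genes, which share a library and its base composition on each axis and are not replicates. The pairs joined are also those with like background pileups in the estimate above.

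Against mCherry DIV14, very long genes were more often lower than higher in TBC1D3 DIV14 and in mCherry DIV7. A gene was called past a 1.5-fold ratio of relative densities, among genes with 10 or more summits in the pair of lists. Overlapping gene models were called separately, though they share summits. In TBC1D3 DIV14, 91 of 214 very long genes were lower (42.5%; 38.8% of genes of 100 kb or more) and 39 higher (18.2%; 22.2% of genes of 100 kb or more). In mCherry DIV7, 96 of 215 were lower (44.7%; 40.1% of genes of 100 kb or more) and 38 higher (17.7%; 22.8%). In MICAL1-M1 DIV14, 8 of 214 were lower (3.74%; 14.6% of genes of 100 kb or more) and 21 higher (9.81%; 16.4%). The shares in TBC1D3 DIV14 and mCherry DIV7 are near the background of long genes in general. In MICAL1-M1 DIV14 they are below it, and genes of 200 to 500 kb, with fewer summits each, gave 13.2% lower and 15.4% higher; the part of the number of summits per gene in these shares was not tested. The median ratio was 0.756 in TBC1D3 DIV14, 0.977 in MICAL1-M1 DIV14 and 0.720 in mCherry DIV7, beside 0.810, 0.962 and 0.795 over genes of 100 kb or more. Scaled to sequence outside genes, every ratio is multiplied by 0.737 in TBC1D3 DIV14, 0.879 in MICAL1-M1 DIV14 and 0.720 in mCherry DIV7. The calls are then 135 lower and 20 higher in TBC1D3 DIV14, 29 lower and 15 higher in MICAL1-M1 DIV14, and 136 lower and 19 higher in mCherry DIV7. The 3 comparisons share the control library, so their values stand side by side and their likeness is no result.

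**Figure D3:**
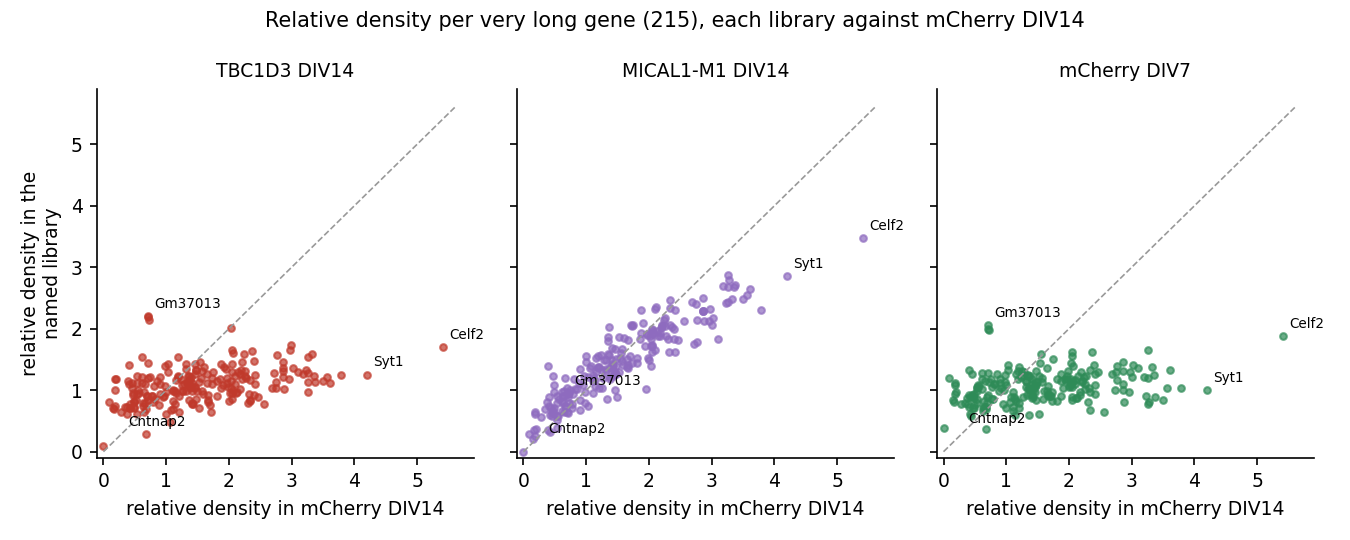
Relative density of each very long gene in TBC1D3 DIV14, MICAL1-M1 DIV14 and mCherry DIV7 (y axes) against that in mCherry DIV14 (x axis), with the line of equality. In MICAL1-M1 DIV14 genes follow the control (rho 0.922), and in TBC1D3 DIV14 and mCherry DIV7 they follow it less (rho 0.438 and 0.328) and span a narrower range, with the protocadherin locus marked Gm37013 among the highest.

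In TBC1D3 DIV14, among the 130 genes with 100 or more summits in the pair of lists, the lowest ratios were 0.298 (0.221 to 0.399) for Cadm2, 0.298 (0.207 to 0.426) for Syt1, 0.304 (0.207 to 0.440) for Mdga2, 0.310 (0.212 to 0.449) for Nfia and 0.315 (0.248 to 0.398) for Celf2. Cadm2, a synaptic immunoglobulin adhesion molecule, had 76 summits in TBC1D3 DIV14, 161 in MICAL1-M1 DIV14, 65 in mCherry DIV7 and 126 in mCherry DIV14. Mdga2, which restrains neuroligin binding to neurexin, had 48 in TBC1D3 DIV14, 94 in MICAL1-M1 DIV14, 42 in mCherry DIV7 and 78 in mCherry DIV14. In mCherry DIV7 the lowest were Syt1 (0.237), Cadm2 (0.239), Pcdh9 (0.241), Mdga2 (0.250) and Nlgn1 (0.250). Nlgn1, the neuroligin of excitatory synapses, had 84 summits in TBC1D3 DIV14, 148 in MICAL1-M1 DIV14, 64 in mCherry DIV7 and 119 in mCherry DIV14. These genes stood between 2.56 and 5.41 in the control, which is the denominator of the ratio that chose them.

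Among genes with 100 or more summits in the pair of lists, the highest ratios in TBC1D3 DIV14 and in mCherry DIV7 were at 1 place, the protocadherin cluster on chromosome 18. Some genes with fewer summits went higher: Iqcm, with 2 summits in mCherry DIV14, had 8.63 (2.22 to 74.1) in TBC1D3 DIV14 and 12.8 (3.37 to 108) in mCherry DIV7. The 3 read-through gene models that overlap one another there, Gm37013 (chr18:36952648-37841873), Gm38666 and Gm38667, count the same summits. Gm37013 had 159 in TBC1D3 DIV14, 49 in MICAL1-M1 DIV14, 158 in mCherry DIV7 and 25 in mCherry DIV14, a ratio of 3.14 (2.05 to 4.99) in TBC1D3 DIV14, 1.35 (0.816 to 2.28) in MICAL1-M1 DIV14 and 2.93 (1.91 to 4.67) in mCherry DIV7. The cluster holds many near-identical copies, and how the authors placed reads that map more than once is not given in the sources used here. Agbl4, a tubulin deglutamylase, followed with 107 summits in TBC1D3 DIV14, 46 in MICAL1-M1 DIV14, 101 in mCherry DIV7 and 23 in mCherry DIV14. Its ratio was 2.29 (1.45 to 3.77) in TBC1D3 DIV14 and 2.04 (1.29 to 3.36) in mCherry DIV7. Wwox, an oxidoreductase at a common fragile site, had 107 in TBC1D3 DIV14, 47 in MICAL1-M1 DIV14, 101 in mCherry DIV7 and 26 in mCherry DIV14.

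In MICAL1-M1 DIV14 the ratios stayed closer to 1. The highest, among 124 genes, was 2.23 (1.45 to 3.55) for Gpc5, a glypican. Gpc5 had 93 summits in TBC1D3 DIV14, 91 in MICAL1-M1 DIV14, 115 in mCherry DIV7 and 28 in mCherry DIV14. The control count was the lowest of the 4. Erbb4, the neuregulin receptor, had 1.55 (1.07 to 2.28). The lowest were Lpp (0.594), Adgrb3 (0.610), Sox6 (0.643), Celf2 (0.643) and Magi1 (0.646).

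Pooled, each listed group of genes was denser than the very long genes on no list in mCherry DIV14 and MICAL1-M1 DIV14. The genes on no list are not without neuronal roles: they include Syt1, at 4.20 in the control. Groups are lists by textbook role, each gene counted once. The genes on no list include the overlapping models Gm37013, Gm38666 and Gm38667, so their shared summits count again for each model. The 32 synaptic and neuronal adhesion genes had a pooled relative density of 1.08 in TBC1D3 DIV14, 1.69 in MICAL1-M1 DIV14, 1.04 in mCherry DIV7 and 1.92 (1.85 to 2.00) in mCherry DIV14. The 94 genes on no list had 1.09 in TBC1D3 DIV14, 1.22 in MICAL1-M1 DIV14, 1.07 in mCherry DIV7 and 1.21 (1.17 to 1.25) in mCherry DIV14. The 11 genes of glutamate receptors and postsynaptic scaffolds had 1.05 in TBC1D3 DIV14, 1.73 in MICAL1-M1 DIV14, 1.07 in mCherry DIV7 and 1.898 (1.77 to 2.03) in mCherry DIV14. The 4 RNA-binding genes had the highest pooled control value, 2.13, and their genes ran from 0.615 in Rbms3 to 5.41 in Celf2, with 1.37 in the splicing factor Rbfox1. Control values were 1.77 for 13 axon guidance and growth genes, 1.76 for 9 genes of kinases, phosphodiesterases and lipid signalling, 1.61 for 9 cadherin, protocadherin and catenin genes, 1.59 for 14 genes at common fragile sites, 1.56 for 15 transcription factor and chromatin genes and 1.48 for 14 ion channel genes. In TBC1D3 DIV14 and mCherry DIV7, by contrast, all groups lay between 0.925 and 1.33.

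Adhesion genes themselves ranged from 0.154 in Cntnap5c to 3.79 in Adgrb3 in the control, with a median gene of 2.04. The calls of each group are to be read against those over all very long genes: 42.5% lower and 18.2% higher in TBC1D3 DIV14, 3.74% and 9.81% in MICAL1-M1 DIV14, and 44.7% and 17.7% in mCherry DIV7. For genes of 100 kb or more the shares were 38.8% and 22.2%, 14.6% and 16.4%, and 40.1% and 22.8%. Of the 32 adhesion genes, 18 were called lower and 4 higher in TBC1D3 DIV14, 1 lower and 0 higher in MICAL1-M1 DIV14, and 18 lower and 4 higher in mCherry DIV7. Their median ratio was 0.619 in TBC1D3 DIV14, 0.890 in MICAL1-M1 DIV14 and 0.617 in mCherry DIV7. Of the 11 receptor and scaffold genes, 7 were called lower and 0 higher in TBC1D3 DIV14, 1 lower and 1 higher in MICAL1-M1 DIV14, and 7 lower and 0 higher in mCherry DIV7. Grm7, a presynaptic metabotropic receptor, was among them at 0.506 (0.364 to 0.706) in TBC1D3 DIV14, and Magi2, a scaffold, at 0.467 (0.361 to 0.602). Of the 13 guidance genes, 9 were called lower and 0 higher in TBC1D3 DIV14, 0 lower and 1 higher in MICAL1-M1 DIV14, and 8 lower and 0 higher in mCherry DIV7. Robo2, a receptor for Slit, had a ratio of 0.484 (0.365 to 0.642) in TBC1D3 DIV14 and Dcc, the netrin receptor, 0.617 (0.433 to 0.881). Of the 14 fragile-site genes, 7 were called lower and 1 higher in TBC1D3 DIV14, near the share of all very long genes, 0 either way in MICAL1-M1 DIV14, and 9 lower and 1 higher in mCherry DIV7. The genes on no list were evenly split in TBC1D3 DIV14, with 28 lower and 27 higher of 93. The higher ones include Gm37013, Gm38666 and Gm38667, which share summits.

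**Figure D4:**
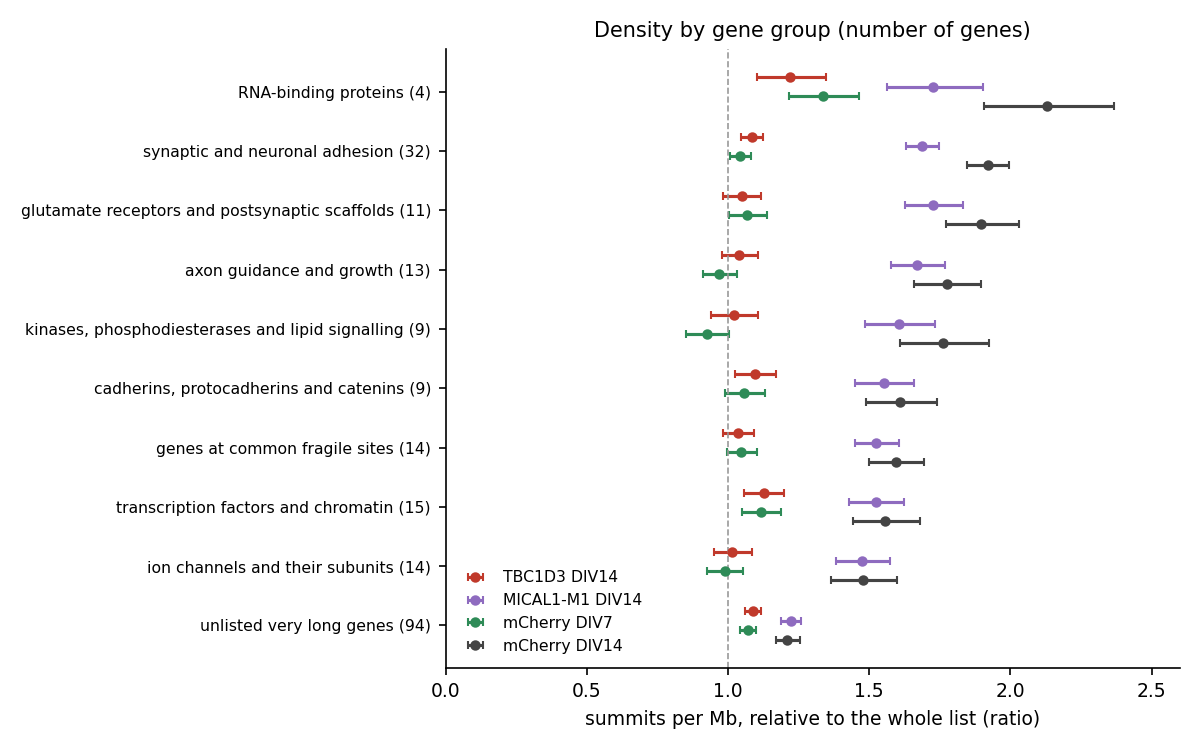
Pooled relative density (x axis, with 95% counting intervals) of very long genes by group (y axis, number of genes in brackets) in TBC1D3 DIV14, MICAL1-M1 DIV14, mCherry DIV7 and mCherry DIV14. The control runs from 1.21 in unlisted genes to 2.13 in RNA-binding genes, and TBC1D3 DIV14 and mCherry DIV7 stay between 0.925 and 1.33.

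Along the gene, summits crowded near the start and thinned towards the end in the control. Strand is known for 169 of the 215 genes. Between 1 and 5 kb from the start, relative density was 2.00 (1.65 to 2.42; 110 summits) in TBC1D3 DIV14, 3.83 (3.25 to 4.497; 151 summits) in MICAL1-M1 DIV14, 1.83 (1.503 to 2.22; 107 summits) in mCherry DIV7 and 5.25 (4.42 to 6.18; 142 summits) in mCherry DIV14. From 5 to 10 kb it was 1.17 in TBC1D3 DIV14, 2.09 in MICAL1-M1 DIV14, 1.18 in mCherry DIV7 and 2.33 in mCherry DIV14. Beyond 200 kb it was 1.05, 1.52, 1.04 and 1.59 in the same lists, so the body far from the start kept the level of the whole class. At the other end, 1 to 5 kb before the gene's end, it was 1.02 (0.771 to 1.33) in TBC1D3 DIV14, 1.19 (0.877 to 1.59) in MICAL1-M1 DIV14, 0.943 (0.710 to 1.23) in mCherry DIV7 and 0.997 (0.657 to 1.45) in mCherry DIV14. From 10 to 50 kb before the end the control had 1.28 (1.15 to 1.42), against 1.63 (1.59 to 1.67) more than 200 kb away. With each gene cut into 20 equal bins, the last bin held 0.983 of the mean bin in TBC1D3 DIV14, 0.850 in MICAL1-M1 DIV14, 1.04 in mCherry DIV7 and 0.781 in mCherry DIV14. The first held 1.01 in TBC1D3 DIV14, 1.17 in MICAL1-M1 DIV14, 1.04 in mCherry DIV7 and 1.19 in mCherry DIV14.

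**Figure D5:**
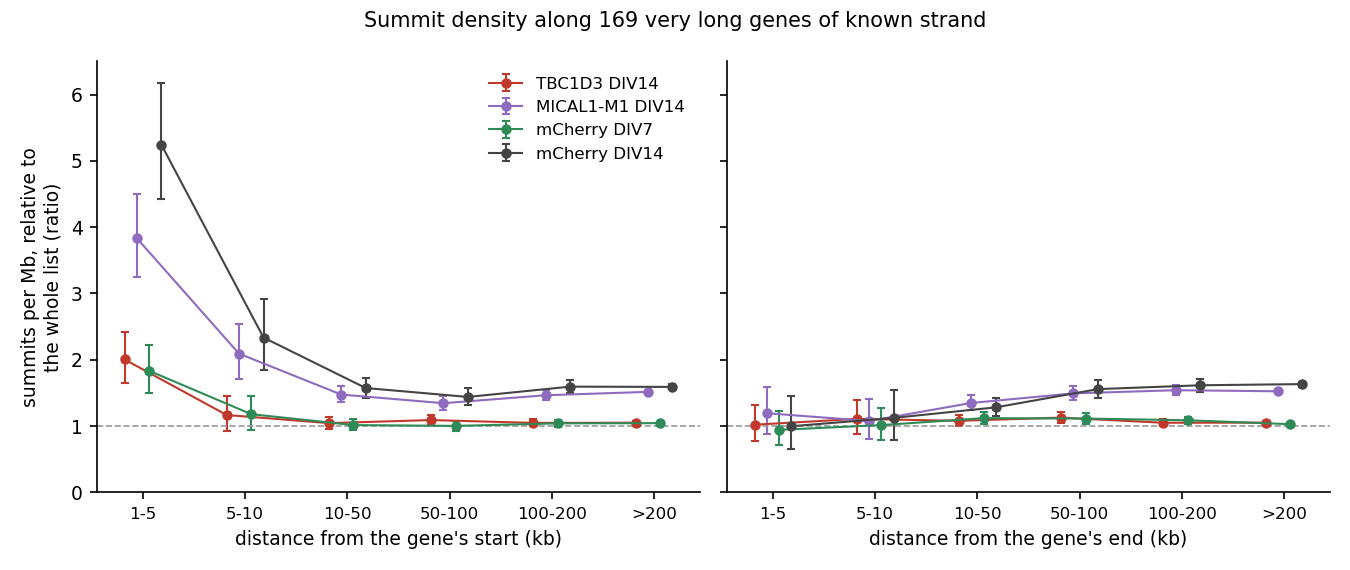
Relative summit density (y axis, with 95% counting intervals) by distance in kb from the start (left x axis) and from the end (right x axis) of 169 very long genes of known strand, in TBC1D3 DIV14, MICAL1-M1 DIV14, mCherry DIV7 and mCherry DIV14. Near the start the lists stand at 2.00, 3.83, 1.83 and 5.25, and near the end all 4 are within their intervals of 1.

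Starts within the gene body also carried summits. Some of them lie close together and share the same peaks, as at Pcdh9, Anks1b and Adgrl3. The intervals count each start on its own, so they can be too narrow. At Pcdh9 such starts also lie within 5 kb of the gene's outer start, where summits crowded. The part of either in the shares below was not tested. Of 135 internal starts in 82 genes, 40.0% (31.7 to 48.8) had a summit within 1 kb in TBC1D3 DIV14, 55.6% (46.8 to 64.1) in MICAL1-M1 DIV14, 45.2% (36.6 to 54.0) in mCherry DIV7 and 62.2% (53.5 to 70.4) in mCherry DIV14. The outermost starts of these genes, 136 in 126 genes, whose nearest summits fall outside the members' rule, had 52.9%, 66.9%, 49.3% and 72.8%. For the 19813 starts of protein-coding genes under 500 kb the shares were lower, 26.3% in TBC1D3 DIV14, 38.7% in MICAL1-M1 DIV14, 26.3% in mCherry DIV7 and 44.5% in mCherry DIV14. The 271 starts of non-coding genes nested in very long genes had 21.0% in TBC1D3 DIV14, 21.8% in MICAL1-M1 DIV14, 23.2% in mCherry DIV7 and 18.5% in mCherry DIV14. The starts of other protein-coding genes nested there had a summit in 6, 5, 7 and 7 of 27 cases.

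Between the other kinds of start the control shares followed the CpG ratio in order, and the internal starts stood above that order. Among the internal starts themselves, those with a higher CpG ratio more often had a summit. A ratio of 0.6 or more was found at 28.1% of the internal starts, 57.4% of the outermost starts and 49.0% of the starts of genes under 500 kb. It was found at 18.5% of the nested protein-coding starts and 6.64% of the nested non-coding starts. Of the 38 internal starts at or above it, 29 had a summit in TBC1D3 DIV14, 28 in MICAL1-M1 DIV14, 25 in mCherry DIV7 and 32 in mCherry DIV14. Of the 97 below it, 25 had one in TBC1D3 DIV14, 47 in MICAL1-M1 DIV14, 36 in mCherry DIV7 and 52 in mCherry DIV14. That is 53.6% (43.2 to 63.8) in the control, against 20.2% (19.4 to 21.0) of 10100 starts under 0.6 in genes under 500 kb. Pde4b, shown above with its 2 CG dinucleotides, is of this kind. The limits given above for internal starts, shared peaks and nearness to an outer start, hold for these shares too.

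Starts account for a small part of the members. The sequence within 1 kb of any start or within 10 kb of a gene end is 2.54% of the class, and held 3.26% of the members in TBC1D3 DIV14, 3.57% in MICAL1-M1 DIV14, 3.26% in mCherry DIV7 and 4.26% in mCherry DIV14. In the rest of the bodies relative density was still 1.06 in TBC1D3 DIV14, 1.46 in MICAL1-M1 DIV14, 1.04 in mCherry DIV7 and 1.53 in mCherry DIV14.

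Summits were also spread unevenly over windows. The windows were pooled over all very long genes, so their variance includes the differences between genes. It does not measure bunching within a gene. In 1716 windows of 100 kb, the variance of the count was 1.84 times its mean in TBC1D3 DIV14, 2.79 times in MICAL1-M1 DIV14, 1.67 times in mCherry DIV7 and 3.68 times in mCherry DIV14. Windows without any summit numbered 3 in TBC1D3 DIV14, 27 in MICAL1-M1 DIV14, 3 in mCherry DIV7 and 105 in mCherry DIV14, and 1 window, in Skint5, was empty in every list. The control's fullest window lay in Celf2 with 19 summits in TBC1D3 DIV14, 26 in MICAL1-M1 DIV14, 17 in mCherry DIV7 and 30 in mCherry DIV14. Celf2 held 3 of the 4 fullest, and Csmd1 the other with 20, 25, 13 and 29 summits in the same lists. In TBC1D3 DIV14 and mCherry DIV7 the fullest windows held 52 and 44 summits, both in the protocadherin cluster.

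Few members were found at the same place in different lists. A peak of TBC1D3 DIV14 overlapped 10.3% (9.74 to 10.9) of the 11197 control members by at least 1 bp, a peak of MICAL1-M1 DIV14 18.9% (18.2 to 19.6) and a peak of mCherry DIV7 9.73% (9.19 to 10.3). As a share of the other list's members, the control overlapped 7.53% in TBC1D3 DIV14, 14.01% in MICAL1-M1 DIV14 and 6.88% in mCherry DIV7. In the bodies of shorter genes 12.2% of control peaks were overlapped by TBC1D3 DIV14, 22.4% by MICAL1-M1 DIV14 and 11.5% by mCherry DIV7. The chance that a control summit lies inside another list's peak was then set against the share of sequence those peaks cover. That quotient was 1.42 in very long genes and 1.85 in other gene bodies for TBC1D3 DIV14, 2.43 and 4.12 for MICAL1-M1 DIV14, and 1.34 and 1.76 for mCherry DIV7. All 3 other lists overlapped 96 control members (0.857%, 0.695 to 1.05), against 1.49% (1.37 to 1.63) in other gene bodies. For 67.9% of the control members no other list had an overlapping peak, beside 64.1% in other gene bodies and 68.6% outside protein-coding genes. Outside protein-coding genes, TBC1D3 DIV14 overlapped 10.9% of control peaks, MICAL1-M1 DIV14 16.9%, mCherry DIV7 10.6% and all 3 lists 0.724%.

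The strongest control members were Mast4, a microtubule-associated kinase, at chr13:102905190-102906850 and Ctnna2, the neuronal alpha-catenin, at chr6:77223005-77224093. Both had a fold of 4.82 in the control, and both were overlapped in all 4 lists. Of the 266 control members with a q of at most 0.05, in 112 genes, 83 were overlapped by TBC1D3 DIV14, 146 by MICAL1-M1 DIV14 and 62 by mCherry DIV7, and 29 by all of them. Sox5, a transcription factor of neuronal fate, held the most with 7. In all, 21 of the 266 were within 1 kb of a start.

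In TBC1D3 DIV14 and mCherry DIV7 the member with the smallest p was the same place in Mdga2. The peak at chr12:67059266-67059786 in TBC1D3 DIV14 had a −log10 p of 105.7 with a fold of 3.09, and that at chr12:67059263-67059800 in mCherry DIV7 a −log10 p of 123.1 with a fold of 2.87. No peak of MICAL1-M1 DIV14 or mCherry DIV14 overlapped it. A pair of places in Dock2 also had a member with a q of at most 0.05 in both lists and no control peak, and their folds in TBC1D3 DIV14 were 2.64 and 1.93. The pileup and the local background behind a p this small at such a fold were not examined. The sequence of the place was not used here. In MICAL1-M1 DIV14 the strongest members were in Ntm, a neuronal adhesion molecule, with a fold of 4.69, and in Adgrl3, with 4.46, and both places also had a control peak.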

How the data were processed

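ATRX chromatin immunoprecipitation was sequenced in 4 libraries of mouse primary neurons, 1 per group. MACS 1.4.2, Bowtie 1.3.0, ChIPseeker 1.26.2 and SAMtools 1.9 are named by the submitters' processing notes. Not given in the sources used here: the role and settings of each, the genome build and the treatment of repeated reads. The authors deposited a peak list per library, with a fold enrichment (ratio) per peak, a −log10 p and a −log10 q, a display score that was not used, and the offset of the summit. The deposited lists reach a p of 0.05, and 57.0% (mCherry DIV14) to 98.1% (TBC1D3 DIV14) of peaks have a q of 1. Lists of this form with q values are not known from MACS 1.4.2, so the caller behind the folds, p and q is uncertain. Read totals are unknown.

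Gene spans came from RefSeq on GRCm38.p6 and strand, start positions and sequences from its table of 300-base windows, which matched 169 of the 215 genes. The coordinates were taken as GRCm38: in the control 44.5% of starts of genes under 500 kb had a summit within 1 kb. Counted sequence ran from the first to the last summit of each chromosome; a base in several genes went to the longest. Relative density is a share of summits over a share of sequence. Intervals are exact binomial or Poisson at 95% and cover counting error only. Genes were called past a 1.5-fold ratio of relative densities to mCherry DIV14, among genes of 100 kb or more with 10 or more summits in the 2 lists; no p-value was computed. The named genes are the 10 longest, the 5 highest and 5 lowest in the control, the 5 highest and 5 lowest ratios of each other list among genes with 100 or more summits, and up to 4 longest of each group; Dock2, Mast4, Ctnna2, Ntm and the genes beside the limit were chosen after their values were seen. Counting was tested on simulated summits. Members, gene groups and rules were chosen with earlier results of these data known. Python 3.11.15, numpy 2.4.6, pandas 2.3.3 and SciPy 1.17.1 were used. Some named genes are not reported here.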

Additional observations from a re-analysis of the deposited data

How the results depend on the processing

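No paired analysis was possible because each group has 1 library. With peaks of q at most 0.05 alone, the share inside very long genes was 5.41% in TBC1D3 DIV14, 7.47% in MICAL1-M1 DIV14, 4.68% in mCherry DIV7 and 6.60% in mCherry DIV14, and relative density 0.725, 1.002, 0.627 and 0.886. Cut to 96230 peaks by p, the TBC1D3 DIV14 share was 7.81% and its density 1.05. With a span limit of 300 kb the shares were 13.5%, 18.3%, 13.3% and 19.5% in the same order, with densities of 1.08 in TBC1D3 DIV14 and 1.06 in mCherry DIV7; with 1 Mb they were 3.07%, 4.46%, 3.04% and 4.63%, with 1.01 in TBC1D3 DIV14, 0.998 in mCherry DIV7 and 1.52 in mCherry DIV14. More than 10 kb from both ends, the shares were 7.73%, 10.7%, 7.59% and 11.3%. Scaled to sequence outside genes, density was 1.76 in MICAL1-M1 DIV14, 1.02 in mCherry DIV7 and 2.11 in mCherry DIV14. Under that scaling, 20 genes were higher in TBC1D3 DIV14 and 19 in mCherry DIV7, and 29 lower in MICAL1-M1 DIV14. At a 2-fold limit, 22 were higher and 48 lower in TBC1D3 DIV14, 11 higher and 0 lower in MICAL1-M1 DIV14, and 22 higher and 47 lower in mCherry DIV7. In MICAL1-M1 DIV14, 15 were lower with peaks of p at most 0.01 and 20 with equal list sizes. Where a limit or a smaller set defines the alternative, the change follows from it; otherwise the cause was not tested. With q at most 0.05, relative density thus turned from above 1 to below it in TBC1D3 DIV14, mCherry DIV7 and mCherry DIV14, and scaling to sequence outside genes turned the calls of MICAL1-M1 DIV14 from mostly higher (21 against 8 lower) to mostly lower (15 higher against 29 lower). The other 57 main values kept within their limits, and of 77 further values 33 moved. Overlap of control members fell to 3.13% by TBC1D3 DIV14, 6.62% by MICAL1-M1 DIV14 and 2.93% by mCherry DIV7 when at least 50% of both peaks had to be shared. The alternative with the summit inside the other list's peak was chosen after seeing the data and gave 4.55%, 10.2% and 4.53%. The part of depth was not tested, and 1 library per group gives no spread between cultures.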

Other observations

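Calls past 1.5-fold against the control are given here for 3 further groups, beside those over all very long genes: 42.5% lower and 18.2% higher in TBC1D3 DIV14, 3.74% and 9.81% in MICAL1-M1 DIV14, and 44.7% and 17.7% in mCherry DIV7. Among transcription factor and chromatin genes, Auts2 had 116 summits in TBC1D3 DIV14, 121 in MICAL1-M1 DIV14, 118 in mCherry DIV7 and 95 in mCherry DIV14, and Sox5 had 101, 127, 120 and 109 in the same lists. In TBC1D3 DIV14, 7 of these 15 genes were called lower and 4 higher, 1 lower and 3 higher in MICAL1-M1 DIV14, and in mCherry DIV7 also 7 lower and 4 higher. Among kinases, phosphodiesterases and lipid signalling genes, Pde4d, a cAMP phosphodiesterase, had a ratio of 0.568 (0.430 to 0.751) in TBC1D3 DIV14 and Dgkb, a diacylglycerol kinase, 0.455 (0.314 to 0.658); 5 of the 9 were called lower in TBC1D3 DIV14, 1 in MICAL1-M1 DIV14 and 6 in mCherry DIV7, and 0 higher in any of them. Among 14 ion channel genes, 5 were called lower in TBC1D3 DIV14, 0 in MICAL1-M1 DIV14 and 7 in mCherry DIV7, and 0 higher in any of them. Trpm3, a heat-sensing channel, was at 0.501 (0.347 to 0.724) in TBC1D3 DIV14, and Dpp10, a potassium channel subunit, at 0.782 (0.583 to 1.05).

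Rbms3, an RNA-binding protein gene, stood against the other RNA-binding genes, with 104 summits in TBC1D3 DIV14, 60 in MICAL1-M1 DIV14, 107 in mCherry DIV7 and 26 in mCherry DIV14 and a ratio of 1.97 (1.27 to 3.16) in TBC1D3 DIV14. Cdh13, a cadherin anchored by a lipid, was above the genome's density in all 4 lists, with a relative density of 1.66 in TBC1D3 DIV14, 1.74 in MICAL1-M1 DIV14, 1.56 in mCherry DIV7 and 2.05 in mCherry DIV14. Cdh12 was below it in all 4, at 0.687, 0.359, 0.808 and 0.174, though its interval in mCherry DIV7 (0.640 to 1.005) included 1. In Cntnap5c, sparse as a whole, mCherry DIV7 had a member with a fold of 5.66 at chr17:57855952-57856185 that was overlapped in all 4 lists.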
